A study of Mus musculus with 6 samples.

Results

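The genes described here regulate the exit of cells from the division cycle. They are the CDK inhibitors *Cdkn1a*, *Cdkn1b*, *Cdkn2a*, *Cdkn2b* and *Cdkn2c*, the pocket protein genes *Rb1* and *Rbl1*, and the D cyclins *Ccnd1*, *Ccnd2* and *Ccnd3*. The 10 genes were chosen by name for this function, with earlier results of these data known. Their Ensembl identifiers were looked up in every library. Of the 10, 8 had a count in at least 1 library, and the same 8 passed the filter on low counts, among 23231 genes with a count and 14378 genes tested.

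RNA-Seq of poly-A RNA was done on C2C12 cells, mouse myoblasts kept as a line, whose cells fuse to multinucleated tubes after serum is lowered. All cells received lentivirus (multiplicity of infection, 100), were selected with puromycin at 2 µg/ml, and were collected on day 5 in differentiation medium containing 2% horse serum. The 3 dCas9-KRAB libraries came from cells with dCas9-KRAB, a nuclease-dead Cas9 fused to a repressor domain, and no sgRNA against an enhancer. The 3 dCas9-KRAB-En5 libraries came from cells that also carried a pair of sgRNAs against Myog-En5, an enhancer of *Myog*, the gene of the differentiation factor myogenin. Both groups thus carried the repressor, expressed from the ubiquitous hUbC promoter together with the puromycin resistance gene. The titles of the dCas9-KRAB-En5 libraries also hold the word contr, which the genotype label does not. No label states that the replicates came from separate cultures, so the p-values measure only the spread between these libraries. Cells without virus were not analysed here.

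Cyclin D proteins activate CDK4 and CDK6, which phosphorylate the pocket proteins RB1, p107 and p130 and so release E2F transcription factors that drive the genes of S phase. CDK inhibitors of the CIP/KIP and INK4 families block these kinases. When myoblasts differentiate, they leave the cycle for good, p21 rises and pocket proteins hold E2F target genes silent. Cyclin D3 is the D cyclin known to accumulate in differentiating muscle cells, where it binds unphosphorylated RB1.

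The gene of the targeted enhancer was checked first. *Myog* counts in replicates 1, 2 and 3 were 43211, 68488 and 74845 in dCas9-KRAB, and 12, 0 and 0 in dCas9-KRAB-En5. The 16 markers of myoblasts and myotubes summed to between 17057 and 19756 TPM (counts over gene length, brought to a total of 1000000 in every library) in dCas9-KRAB and to between 16.9 and 24.4 TPM in dCas9-KRAB-En5. The myoblast factor *Myod1* was at 33.8 to 110.5 TPM in dCas9-KRAB and at 0 to 0.0761 TPM in dCas9-KRAB-En5, and the labelled cell type, myoblast, was therefore without its defining marker in the second group. The 22 macrophage markers summed to between 4393 and 5149 TPM in dCas9-KRAB and to between 5833 and 9307 TPM in dCas9-KRAB-En5, with 12 of the 22 at 10 TPM or more in all 6 libraries and *Mrc1* at 0 in all of them. The 10 fibroblast and mesenchymal markers summed to between 229 and 625 TPM in dCas9-KRAB and between 265 and 1187 TPM in dCas9-KRAB-En5, most of it *Vim*, while 6 of the 8 tested had a negative log2 fold change (median -1.44). Markers of T cells, endothelial cells and epithelial cells summed to at most 6.29 TPM in any library. In such bulk libraries, fewer cells of a type and less RNA per cell cannot be told apart. Total counts ranged from 40554323 to 73988425 in dCas9-KRAB and from 31831093 to 40384720 in dCas9-KRAB-En5, and dCas9-KRAB-En5 replicate 3 stood apart, with 13991 genes listed against 17084 to 19395 in the others and 25.8% of its counts in ribosomal protein genes against 10.8% to 19.4%.

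Bases upstream of the annotated starts are shown for the members that were highest in level (*Cdkn1a*), showed the largest differences between the groups for which RefSeq promoters were at hand (*Ccnd3* and *Cdkn1b*) or are textbook E2F targets (*Rbl1*). RefSeq promoter windows on GRCm38.p6 were matched for 7 of the 10 members, in 11 windows, and *Rb1*, *Ccnd1* and *Ccnd2* were not among them. Each sequence runs 5′ to 3′ on the strand of the gene and ends before the gene's own annotated exon.
Cdkn1a, upstream start, chr17:29090729-29090975, plus strand: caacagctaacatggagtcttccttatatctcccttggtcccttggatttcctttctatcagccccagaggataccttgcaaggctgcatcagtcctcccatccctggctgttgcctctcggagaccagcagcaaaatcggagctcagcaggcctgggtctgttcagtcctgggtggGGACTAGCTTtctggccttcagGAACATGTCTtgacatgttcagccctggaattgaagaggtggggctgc
Cdkn1b, chr6:134920151-134920400, plus strand: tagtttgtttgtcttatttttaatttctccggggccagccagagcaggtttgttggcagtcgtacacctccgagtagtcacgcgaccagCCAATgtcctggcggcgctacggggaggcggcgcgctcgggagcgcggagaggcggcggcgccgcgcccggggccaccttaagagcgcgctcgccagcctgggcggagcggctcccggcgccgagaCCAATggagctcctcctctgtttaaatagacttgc
Rbl1, chr2:157204535-157204784, minus strand: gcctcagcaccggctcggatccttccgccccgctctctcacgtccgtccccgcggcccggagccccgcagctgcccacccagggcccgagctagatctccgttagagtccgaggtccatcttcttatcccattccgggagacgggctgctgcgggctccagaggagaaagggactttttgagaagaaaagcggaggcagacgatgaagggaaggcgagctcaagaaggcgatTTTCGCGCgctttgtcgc
Ccnd3, first start, chr17:47504801-47505050, plus strand: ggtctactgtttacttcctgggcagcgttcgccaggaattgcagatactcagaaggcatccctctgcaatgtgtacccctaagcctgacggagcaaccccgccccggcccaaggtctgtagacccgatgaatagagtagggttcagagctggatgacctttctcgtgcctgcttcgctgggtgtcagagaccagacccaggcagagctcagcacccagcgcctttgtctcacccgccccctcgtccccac
Ccnd3, internal start, chr17:47593217-47593435, plus strand: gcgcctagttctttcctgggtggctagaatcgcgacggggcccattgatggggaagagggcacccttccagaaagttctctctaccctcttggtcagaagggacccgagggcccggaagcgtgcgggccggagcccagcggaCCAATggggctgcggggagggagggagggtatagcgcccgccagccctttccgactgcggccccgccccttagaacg
Capitals mark p53 half-sites in the *Cdkn1a* sequence, CCAAT on either strand in the *Cdkn1b* and *Ccnd3* sequences, and TTTNGCGC, the core bound by E2F, on either strand in the *Rbl1* sequence. No marked stretch overlapped another motif searched.

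Over the 250 bases before each start, a p53 half-site was present in 1 of the 11 member windows and in 7.13% of all 32851 windows of that length. CCAAT was present in 2 of 11 member windows and in 33.8% of all windows, and TTTNGCGC in 2 of 11 member windows and in 1.13% of all. Those 2 were the window of *Rbl1*, shown as a textbook E2F target, and 1 of *Cdkn2a*, which had 0 counts. GGGCGG was present in 7 of 11 member windows and in 32.7% of all windows. CANNTG, the E-box letters recognised by myogenic factors, was present in 3 of 11 member windows and in 66.2% of all windows, and both *Ccnd3* windows lacked it. These matches describe letters only.

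In the comparison of dCas9-KRAB-En5 with dCas9-KRAB, none of the 8 tested members was called by edgeR's quasi-likelihood test on the counts. A call required the study's cutoffs, a log2 fold change of 1 or more in size and an adjusted p no higher than 0.01. Adjustment was by Benjamini-Hochberg over all genes tested. Among all genes tested 6.19% passed, 4.67% as lower and 1.52% as higher in dCas9-KRAB-En5. The 3 members with an unadjusted p under 0.05 were *Ccnd3*, *Rb1* and *Cdkn1b*. With the replicate number of the labels as a block, 1 member, *Ccnd3*, was called, as lower, where 10.7% of all genes were. DESeq2, the test to which the study applied these cutoffs, called 1 member, *Ccnd3*, as lower (log2 fold change -2.39, adjusted p = 0.000432). It called 13.2% of all genes it tested. The call of limma on log2(TPM + 1) was 0 members. Values are given below by role, as deposited TPM in replicates 1, 2 and 3 of each group. All fold changes are of dCas9-KRAB-En5 over dCas9-KRAB. They rest on TMM-scaled counts, and the TMM factor of dCas9-KRAB-En5 replicate 3 was 0.730 against 0.923 to 1.22 in the other libraries, so that this library ranks higher in TMM-scaled CPM than in TPM. The 8 members fell on the same side of overlap on both scales.

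*Cdkn1a* (chromosome 17, 29090976 to 29100727, plus strand) encodes p21, the CIP/KIP inhibitor that p53 and myogenic factors induce. Its level was 228, 506 and 380.2 TPM in dCas9-KRAB and 389, 365 and 219.6 TPM in dCas9-KRAB-En5. The groups overlapped widely, and in TMM-scaled CPM replicate 3 of dCas9-KRAB-En5 was the highest of its group (769, against 627 and 509) where in TPM it was the lowest. In TPM *Cdkn1a* was the highest member in all 6 libraries, including those with muscle markers near 0. The means were 371 ± 139 TPM (SD, n = 3) and 324 ± 91.4 TPM (SD, n = 3). The log2 fold change was -0.33 (SE 0.48), with an adjusted p of 0.665 by edgeR's quasi-likelihood test.

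*Cdkn1b* (chromosome 6, 134920401 to 134925513, plus strand) encodes p27, the CIP/KIP inhibitor that accumulates in resting cells and is removed by the SKP2 ubiquitin ligase. Its level was 10.6, 6.40 and 5.22 TPM in dCas9-KRAB and 51.6, 34.1 and 3.95 TPM in dCas9-KRAB-En5. Replicates 1 and 2 of dCas9-KRAB-En5 were above every dCas9-KRAB library, and replicate 3 was below every one in TPM. In TMM-scaled CPM, replicate 3 (17.7) lay within the range of dCas9-KRAB (15.6 to 31.3), and on both scales the groups overlapped. The means were 7.40 ± 2.81 TPM (SD, n = 3) and 29.9 ± 24.1 TPM (SD, n = 3), with a log2 fold change of 1.56 (SE 0.61) that did not pass (adjusted p = 0.0976, edgeR). Without dCas9-KRAB-En5 replicate 3 the log2 fold change was 1.92 and the gene was called higher (adjusted p = 0.00569, edgeR), in a fit that called 25.7% of all genes.

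*Cdkn2c* (chromosome 4, 109660876 to 109667189, minus strand) encodes p18, an INK4 inhibitor of CDK4 and CDK6. Its level was 12.7, 10.8 and 12.6 TPM in dCas9-KRAB, a narrow range, and 16.7, 27.9 and 5.64 TPM in dCas9-KRAB-En5, a wide one. The dCas9-KRAB-En5 libraries lay on both sides of the dCas9-KRAB libraries. The means were 12.0 ± 1.09 TPM (SD, n = 3) and 16.7 ± 11.1 TPM (SD, n = 3), and the log2 fold change was 0.11 (SE 0.44, adjusted p = 0.892, edgeR). The sign of this value turned without dCas9-KRAB replicate 2 (-0.05) and without dCas9-KRAB-En5 replicate 2 (-0.18).

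*Cdkn2a*, which encodes p16 and, from another start, the ARF protein that stabilises p53, had 0 counts in all 6 libraries. *Cdkn2b*, its neighbour on chromosome 4 and the gene of p15, also had 0 counts in all 6. *Cdkn2a* lies from 89274471 to 89294653 and *Cdkn2b* from 89306299 to 89311039, both on the minus strand. At the depth of these libraries, 0 counts allow a level of up to 0.0405 to 0.0942 CPM (CPM, counts scaled to 1000000 per library; the limit is 3 counts in each library and covers counting error only). The TPM of the genes listed made up the whole scaled total of every library, 1000000, so *Cdkn2a* and *Cdkn2b* had no part in it.

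Of the 7 genes on the list of CDK inhibitors, 5 were listed in a library and 4 were tested, and their median log2 fold change was 0.31 beside 0.08 for all genes tested. The INK4 gene *Cdkn2d* (p19), chosen for mention after its values were seen, was above *Cdkn1b* and *Cdkn2c* in all 6 libraries. It had 93.3, 125 and 148 TPM in dCas9-KRAB and 151, 226 and 167 TPM in dCas9-KRAB-En5. Its groups did not overlap by a small margin in TPM and overlapped in TMM-scaled CPM, and its log2 fold change was 0.51 (SE 0.48, adjusted p = 0.496, edgeR). In every library the INK4 transcripts were thus mainly those of *Cdkn2d*.

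*Rb1* (chromosome 14, 73183673 to 73325822, minus strand) encodes the retinoblastoma protein, the pocket protein that represses E2F1 to E2F3 and is needed for stable withdrawal of muscle cells from the cycle. Its level was 1.56, 1.35 and 0.509 TPM in dCas9-KRAB and 10.9, 8.67 and 0.770 TPM in dCas9-KRAB-En5. Replicates 1 and 2 of dCas9-KRAB-En5 were above all others, while replicate 3 lay within the range of dCas9-KRAB. The means were 1.14 ± 0.557 TPM (SD, n = 3) and 6.77 ± 5.31 TPM (SD, n = 3). The log2 fold change of 2.13 (SE 0.69) did not pass (adjusted p = 0.0532, edgeR), nor did that of 1.90 with the replicate block (adjusted p = 0.0102, edgeR). Without dCas9-KRAB-En5 replicate 3 it was 2.51 and called higher (adjusted p = 0.00285, edgeR), where 25.7% of all genes were called. With GC content and length as offsets in the fit it was 1.39 (adjusted p = 0.0563, edgeR), and with these offsets and the replicate block 1.32 (adjusted p = 0.0229, edgeR), neither of them a call. The summed macrophage markers were also highest in dCas9-KRAB-En5 replicates 1 and 2, at 9307 and 7782 summed TPM. In replicate 3 the sum was 5833, above every dCas9-KRAB library, although *Rb1* lay within their range. In dCas9-KRAB replicates 1, 2 and 3 the sums were 4393, 5149 and 5014, which did not follow the order of *Rb1*. The marker *Cd14* alone was at 3398, 1369 and 525 TPM in dCas9-KRAB-En5 replicates 1, 2 and 3. Of the 19 macrophage markers tested, 12 had a positive and 7 a negative log2 fold change, and 1 was called, as higher. Their part in the *Rb1* and *Cdkn1b* values was not tested.

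*Rbl1* (chromosome 2, 157145893 to 157204534, minus strand) encodes p107, the pocket protein that binds the repressive E2F4 and is itself an E2F target. Its level was 1.66, 1.41 and 1.23 TPM in dCas9-KRAB and 3.45, 4.33 and 0.605 TPM in dCas9-KRAB-En5. As for *Rb1*, the first pair of dCas9-KRAB-En5 replicates was high, and replicate 3 was the lowest of all 6 libraries. The means were 1.43 ± 0.218 TPM (SD, n = 3) and 2.79 ± 1.95 TPM (SD, n = 3), with a log2 fold change of 0.54 (SE 0.54, adjusted p = 0.518, edgeR). With the offsets for GC content and length the value was -0.11. Within libraries the ratio of *Rb1* to *Rbl1* TPM was 0.941, 0.952 and 0.415 in dCas9-KRAB and 3.15, 2.00 and 1.27 in dCas9-KRAB-En5. *Rb1* was therefore the lower of the pair in each dCas9-KRAB library and the higher in each dCas9-KRAB-En5 library, also in replicate 3.

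**Figure D1:**
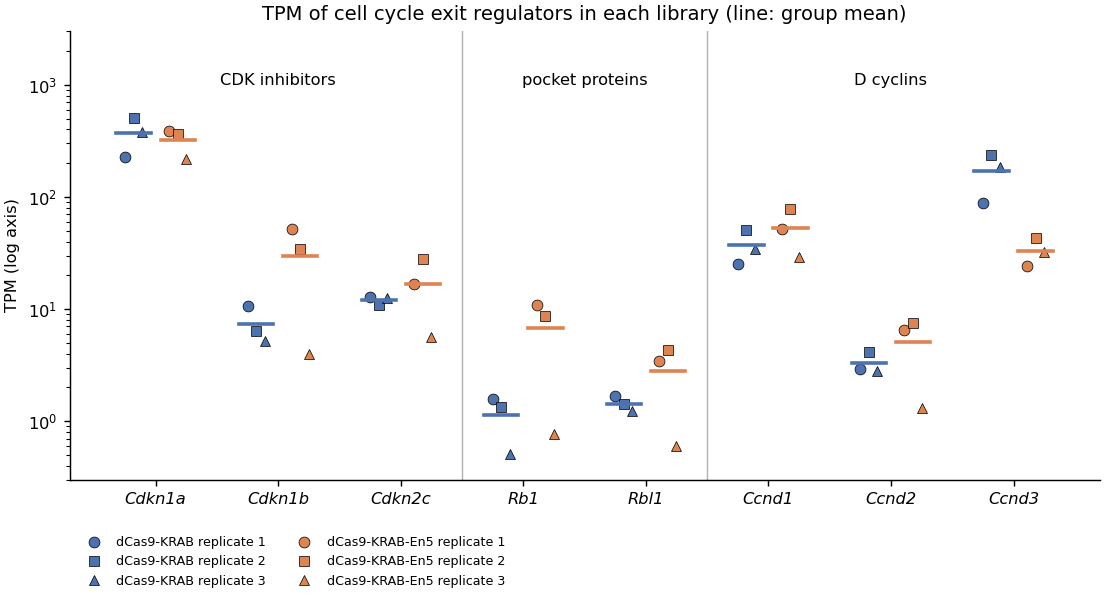
TPM of the 8 members with counts, on a log axis, in each of the 6 libraries, with marker shapes for replicates and a line at each group mean. *Ccnd3* is the member whose groups do not overlap, and dCas9-KRAB-En5 replicate 3 (orange triangle) lies below the other 2 libraries of its group in TPM for every member except *Ccnd3*, where it is between them. In TMM-scaled CPM this replicate is instead the highest of its group for *Cdkn1a* and *Ccnd3*, and between the other 2 for *Ccnd1*.

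*Ccnd3* (chromosome 17, 47505051 to 47599691, plus strand) encodes cyclin D3. Its level was 88.1, 238 and 185 TPM in dCas9-KRAB and 24.1, 42.6 and 32.2 TPM in dCas9-KRAB-En5. Every dCas9-KRAB-En5 library was below every dCas9-KRAB library in TPM, as in TMM-scaled CPM (96.2 to 278 against 503 to 1144), and *Ccnd3* was the 1 tested member of 8 whose groups did not overlap, where 27.5% of all genes tested did not. The means were 171 ± 76.1 TPM (SD, n = 3) and 32.9 ± 9.24 TPM (SD, n = 3). Its level was 5.21-fold lower in dCas9-KRAB-En5 by the edgeR estimate, a log2 fold change of -2.38 (SE 0.58), and the adjusted p of 0.0170 (edgeR) missed the cutoff. *Ccnd3* was called lower with the replicate number as a block (log2 fold change -2.43, adjusted p = 0.00211, edgeR).

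The sign of the *Ccnd3* value was negative in all 15 alternatives, with log2 fold changes from -3.02 to -2.09 and adjusted p-values from 0.000432 to 0.0818. The looser cutoff of 0.05, among these alternatives, reuses the reported fit and so could not change the sign. *Ccnd3* was called lower without dCas9-KRAB-En5 replicate 3 (log2 fold change -2.98, adjusted p = 0.000944, edgeR), where 25.7% of all genes were called. It was also called lower by DESeq2 (log2 fold change -2.39, adjusted p = 0.000432), which called 13.2%. With offsets for GC content and length it was also called (log2 fold change -2.76, adjusted p = 0.00816, edgeR), where 10.1% of all genes were, and likewise with these offsets and the replicate block (-3.02, adjusted p = 0.00479, edgeR), where 8.48% were. Leaving out any 1 of the other 5 libraries gave no call. Between the groups the muscle markers went the same way as *Ccnd3* (summed levels of 17057 to 19756 TPM against 16.9 to 24.4 TPM). Within dCas9-KRAB-En5 they did not, with 24.4, 16.9 and 22.4 summed TPM in replicates 1, 2 and 3 beside 24.1, 42.6 and 32.2 TPM for *Ccnd3*. The part of the muscle markers in the *Ccnd3* difference was not tested.

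*Ccnd1* (chromosome 7, 144929931 to 144939925, minus strand) encodes cyclin D1, the D cyclin that mitogens induce in proliferating myoblasts. Its level was 25.3, 50.9 and 34.6 TPM in dCas9-KRAB and 51.6, 78.6 and 28.9 TPM in dCas9-KRAB-En5. The groups overlapped, with replicate 3 of dCas9-KRAB-En5 within the range of dCas9-KRAB in TPM. In TMM-scaled CPM it was replicate 1 (110.4) that lay within the range of dCas9-KRAB (77.4 to 131), and replicate 3 (134) was just above it. The means were 36.9 ± 13.0 TPM (SD, n = 3) and 53.04 ± 24.9 TPM (SD, n = 3), with a log2 fold change of 0.31 (SE 0.43, adjusted p = 0.657, edgeR).

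*Ccnd2* (chromosome 6, 127125162 to 127152193, minus strand) encodes cyclin D2. Its level was 2.91, 4.11 and 2.82 TPM in dCas9-KRAB and 6.50, 7.53 and 1.32 TPM in dCas9-KRAB-En5. Replicates 1 and 2 of dCas9-KRAB-En5 were above all others and replicate 3 below them. The means were 3.28 ± 0.723 TPM (SD, n = 3) and 5.12 ± 3.33 TPM (SD, n = 3), and the log2 fold change of 0.27 (SE 0.46, adjusted p = 0.716, edgeR) turned to -0.64 with the offsets for GC content and length (adjusted p = 0.0929, edgeR).

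**Figure D2:**
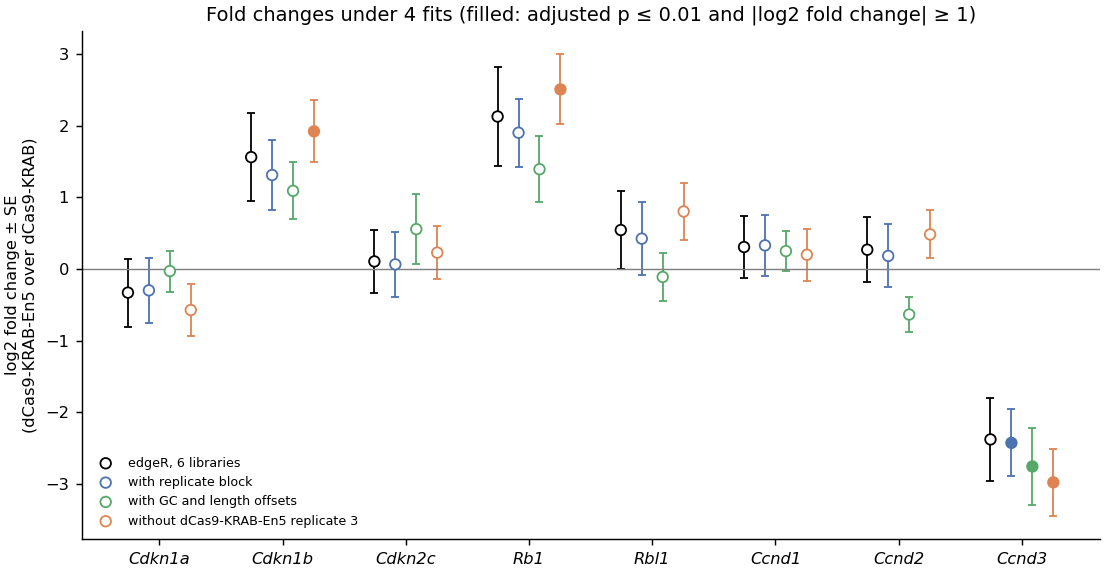
Log2 fold changes of dCas9-KRAB-En5 over dCas9-KRAB with standard errors for the 8 tested members in 4 edgeR fits, filled where a member was called. *Ccnd3* is filled in 3 of the 4 fits, *Cdkn1b* and *Rb1* only without dCas9-KRAB-En5 replicate 3, and the signs of *Rbl1* and *Ccnd2* turn with the offsets for GC content and length.

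The makeup of the D cyclin transcripts was set side by side within libraries, since TPM are per gene length. That length covers all annotated exons, 8775 bases for *Ccnd3* (21 transcripts) and 4709 for *Ccnd1* (3 transcripts). If the transcripts present are shorter, the shares within a library are off, so they are approximate. *Ccnd3* held 75.8%, 81.2% and 83.2% of the summed D cyclin TPM in dCas9-KRAB and 29.3%, 33.1% and 51.5% in dCas9-KRAB-En5. Its mean share was 80.1% ± 3.83 (SD, n = 3) against 38.0% ± 11.9 (SD, n = 3), a difference of -42.1 percentage points (exact two-sided permutation test, p = 0.1, the smallest p that 3 against 3 libraries can give). *Ccnd1* held 21.7%, 17.4% and 15.6% in dCas9-KRAB and 62.8%, 61.1% and 46.4% in dCas9-KRAB-En5. Its mean share was 38.5 percentage points higher in dCas9-KRAB-En5 (exact two-sided permutation test, p = 0.1), and for both genes the groups did not overlap. Shares within a library sum to the whole, so the rise of *Ccnd1* largely mirrors the fall of *Ccnd3* and is no separate result. The level of *Ccnd1* itself had a log2 fold change of 0.31 (adjusted p = 0.657, edgeR), with overlapping groups. *Ccnd2* held between 1.27% and 7.91%, with overlapping groups.

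The ratio of *Ccnd3* to *Ccnd1* TPM within a library was 3.49, 4.68 and 5.34 in dCas9-KRAB and 0.467, 0.541 and 1.11 in dCas9-KRAB-En5. The summed level of the D cyclins was 116, 293 and 223 TPM in dCas9-KRAB and 82.2, 129 and 62.4 TPM in dCas9-KRAB-En5, and these sums overlapped. In TPM, cyclin D3 transcript was thus the most abundant D cyclin in the dCas9-KRAB libraries. It was also so in dCas9-KRAB-En5 replicate 3, where muscle markers were near 0 (32.2 TPM against 28.9 TPM for cyclin D1). Cyclin D1 exceeded it in TPM in replicates 1 and 2 of dCas9-KRAB-En5. In counts, *Ccnd1* exceeded *Ccnd3* in replicate 1 of dCas9-KRAB-En5 (5147 against 4483) but not in replicate 2 (6275 against 6331) or replicate 3 (3118 against 6457).

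**Figure D3:**
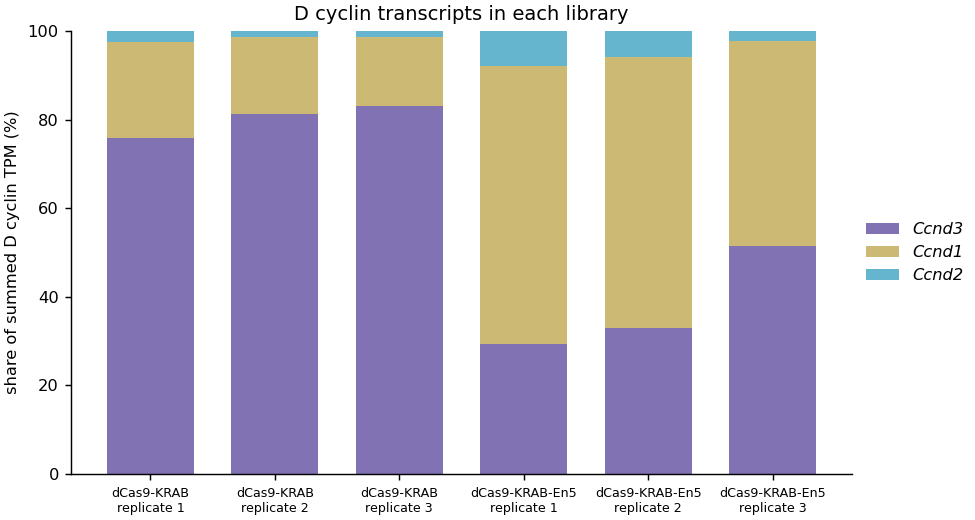
Share of *Ccnd3*, *Ccnd1* and *Ccnd2* in the summed D cyclin TPM of each library, stacked to 100%. *Ccnd3* takes 75.8% to 83.2% in the dCas9-KRAB libraries and 29.3% to 51.5% in the dCas9-KRAB-En5 libraries.

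The order of levels, in TPM, was wide in both groups. In dCas9-KRAB the means fell from *Cdkn1a* through *Ccnd3*, *Ccnd1*, *Cdkn2c*, *Cdkn1b*, *Ccnd2* and *Rbl1* to *Rb1*. Only 2 pairs of neighbours had overlapping ranges, *Cdkn1a* with *Ccnd3* and *Rbl1* with *Rb1*, and in both pairs the first gene was still higher in 3 of 3 libraries. In dCas9-KRAB-En5 the order was *Cdkn1a*, *Ccnd1*, *Ccnd3*, *Cdkn1b*, *Cdkn2c*, *Rb1*, *Ccnd2* and *Rbl1*. There only *Cdkn1a* was separate from its neighbour, and all other neighbours overlapped. *Cdkn1a* exceeded *Cdkn1b* by 21.5, 79.1 and 72.8 times in dCas9-KRAB and by 7.53, 10.7 and 55.7 times in dCas9-KRAB-En5.

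Among the members, the log2 CPM over the 6 libraries correlated most for *Cdkn1b* with *Rb1* (Pearson r = 0.958) and for *Cdkn1b* with *Rbl1* (r = 0.913). *Ccnd3* and *Rb1* ran opposite (r = -0.899). These are descriptions over 6 libraries of 2 groups that share library depth and composition. Another 7547 genes averaged 10 CPM or more, and those whose pattern was most like *Cdkn1a*, the highest CDK inhibitor by the mean over the 6 libraries, were *Traf4* (r = 0.997), *Plaur* (0.995) and *Ubald1* (0.981). *Naa25* (r = 0.9998), *Rbm25* (0.9993) and *Ccser2* (0.9981) were most like *Rb1*, the higher pocket protein gene by the mean over 6 libraries though not within dCas9-KRAB, and *Shmt2* (r = 0.9992), *Tuba1c* (0.9985) and *Gm14150* (0.9978) were most like *Ccnd3*.

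The rest of the pathway was read from lists of genes. None of the 12 cyclin-dependent kinases and other cyclins was called, and their median log2 fold change was -0.14. *Cdk4* and *Cdk6*, the kinases that D cyclins activate, were chosen for mention after their values were seen. *Cdk4* had 251, 295 and 293 TPM in dCas9-KRAB and 97.0, 154 and 107 TPM in dCas9-KRAB-En5. Its groups did not overlap, as for 27.5% of all genes tested, and its log2 fold change was -1.30 (SE 0.49, adjusted p = 0.0865, edgeR). *Cdk6* had 1.29, 1.69 and 1.07 TPM in dCas9-KRAB and 11.4, 10.9 and 1.24 TPM in dCas9-KRAB-En5. Its replicate 3 lay within the range of dCas9-KRAB in TPM and above it in TMM-scaled CPM (17.1 against 9.84 to 12.9), and its log2 fold change was 2.12 (SE 0.55, adjusted p = 0.0224, edgeR). *Cdk6* was called higher by DESeq2 (adjusted p = 0.00301), which called 13.2% of all genes it tested. Without dCas9-KRAB-En5 replicate 3, *Cdk6* was called higher (log2 fold change 2.45, adjusted p = 0.000566, edgeR) and *Cdk4* lower (-1.80, adjusted p = 0.00266, edgeR). That fit called 25.7% of all genes.

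None of the 10 E2F and DP factors was called. The MuvB list held 8 genes, those of the MuvB core, B-Myb (*Mybl2*), *Foxm1* and *Dyrk1a*. The MuvB core acts on cell cycle genes together with the pocket proteins. None of the 8 was called. Among 16 E2F target genes of S phase, 1 was called lower and 0 higher, 13 had a negative log2 fold change, and the median was -0.68. The called gene was *Tyms*, which encodes thymidylate synthase. It had 8.40, 6.59 and 8.10 TPM in dCas9-KRAB and 1.36, 1.37 and 0.804 TPM in dCas9-KRAB-En5, and its log2 fold change was -2.89 (SE 0.46, adjusted p = 0.00208, edgeR). Every dCas9-KRAB-En5 library was below every dCas9-KRAB library.

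Among 12 mitosis genes 0 were called, 10 had a positive log2 fold change, and the median was 0.77. Of 13 p53 target genes tested, 1 was called higher and 0 lower, with a median of 0.97. It was *Zmat3*, an RNA-binding protein induced by p53, with 1.64, 4.27 and 2.25 TPM in dCas9-KRAB and 33.1, 35.1 and 7.61 TPM in dCas9-KRAB-En5. Its log2 fold change was 2.90 (SE 0.51, adjusted p = 0.00368, edgeR), and its groups did not overlap. *Cdkn1a*, which p53 also induces, had overlapping groups, as did most of the p53 target genes tested. None of the 10 ubiquitin ligase subunits was called. With the replicate block, 3 p53 target genes, 1 mitosis gene and 1 gene on the ubiquitin ligase list were called higher, and *Mdm2*, named after its values were seen, is on both the p53 and the ubiquitin ligase list and counts under both. DESeq2 called 3 p53 target genes, 2 mitosis genes, 1 gene each of the kinase, MuvB and ubiquitin ligase lists and 1 S phase gene higher, and 1 S phase gene lower. The call on the MuvB list was *Dyrk1a*, named after its values were seen (log2 fold change 2.15, adjusted p = 0.00365, DESeq2). It is neither a gene of the MuvB core nor B-Myb. Without dCas9-KRAB-En5 replicate 3, where 25.7% of all genes were called, the calls were 3 higher and 1 lower among p53 target genes, 3 higher in the MuvB list, 1 higher among E2F and DP factors, 1 higher and 2 lower among S phase genes, 2 higher among mitosis genes and 2 higher among ubiquitin ligase subunits. The 3 of the MuvB list were *Lin9*, *Lin54* and *Dyrk1a*, also named after their values were seen.

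**Figure D4:**
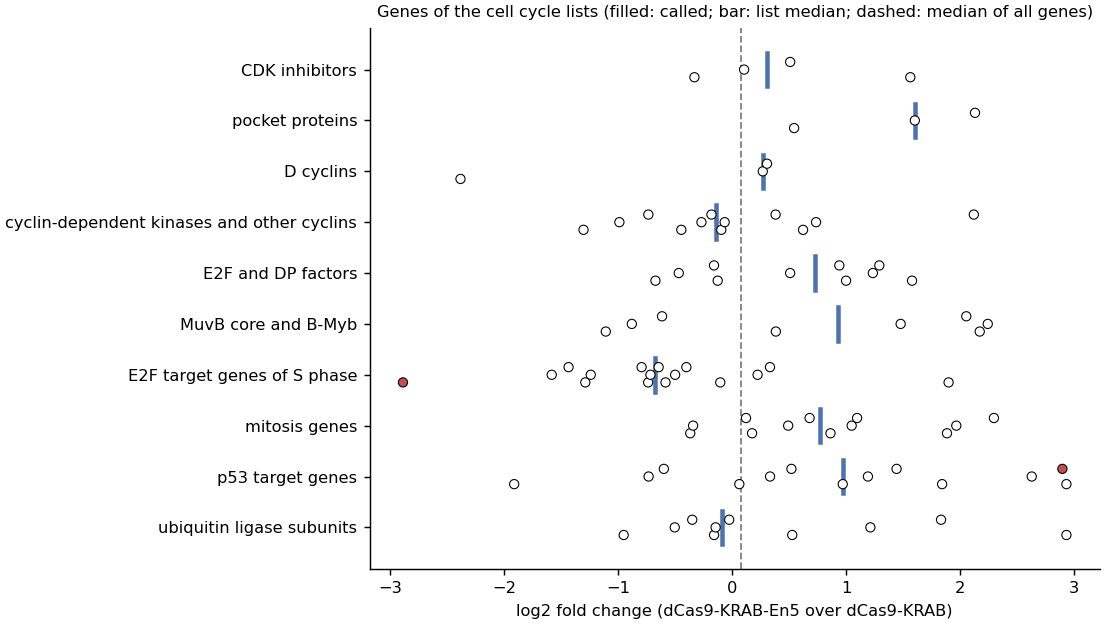
Log2 fold change of each tested gene on 10 cell cycle lists (points, filled where called), with the list median (bar) and the median of all genes tested (dashed line, 0.08). The 2 filled points are *Tyms* among the S phase genes and *Zmat3* among the p53 target genes. The list labelled MuvB core and B-Myb also holds *Foxm1* and *Dyrk1a*.

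Libraries also differed along gene length and GC content. Across 14340 genes, which are not independent replicates, the deviation of a library from the mean of the 6 correlated with gene length at 0.345 and 0.378 (Spearman) in dCas9-KRAB-En5 replicates 1 and 2. It was -0.263 in dCas9-KRAB-En5 replicate 3 and between -0.336 and -0.0719 in dCas9-KRAB. With GC content it was -0.387 and -0.197 in dCas9-KRAB-En5 replicates 1 and 2, and 0.233 in replicate 3, beside -0.301, 0.428 and 0.379 in dCas9-KRAB replicates 1, 2 and 3. *Rb1*, *Rbl1* and *Cdkn1b* had GC contents of 41.2%, 42.1% and 43.1%, at the 8.64th, 11.4th and 14.6th percentile of the genes tested, and *Ccnd3* had 56.7%, at the 84.8th. With offsets for both properties, the log2 fold change was 1.09 for *Cdkn1b* (0.95 with the replicate block as well), -0.03 for *Cdkn1a*, 0.56 for *Cdkn2c* and 0.25 for *Ccnd1*, none of them a call, and the values of the other members are given above.

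Several members share exon bases with a gene on the opposite strand. Whether counting used strand is not given in the sources used here, and without it reads over these bases cannot be told apart. *Ccnd3* shares 361 bases with *Bysl*, *Rb1* shares 488 with *Rcbtb2* and 408 with *Lpar6*, *Ccnd1* shares 1100 with *LTO1*, *Ccnd2* shares 368 with *9330179D12Rik*, and *Cdkn1a* shares 273 with *AC167363.2*. These compare with exon lengths of 8775 bases for *Ccnd3*, 6015 for *Rb1*, 4709 for *Ccnd1*, 9409 for *Ccnd2* and 3553 for *Cdkn1a*. *Cdkn1b*, *Cdkn2c* and *Rbl1* overlap no annotated exon of another gene and share none of their 50-base words with another transcript. *Cdkn1a* shares 8.49% of such words with 584 genes and *Ccnd3* 5.39% with 46 genes, on either strand. *Rb1*, *Ccnd1* and *Ccnd2* share such words only with genes that overlap them.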

How the data were processed

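Libraries were grouped by the genotype label. Per the labels and the methods of the study, the authors aligned reads with HISAT2 2.2.1 to GRCm38 (mm10) and obtained raw counts per gene with featureCounts. The annotation release is not given in the sources used here. The authors also deposited TPM; the gene lengths these imply lay within 1% of the GENCODE exon length for 98.6% of 12906 genes. Genes not listed in a library were taken as 0.

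Counts were tested with edgeR 4.0.16 in R 4.3.3 (TMM, filterByExpr with minimum count 10 and minimum total 15, glmQLFit, glmQLFTest, condition alone). A standard error is the absolute log2 fold change over the square root of its F. DESeq2 1.42.0, limma 3.58.1, other scalings, no filter, a cutoff of 0.05, the replicate block and leaving out each library were the alternatives. Offsets from a loess on GC content and length (span 0.3) were added after seeing the data. The edgeR step was tested on simulated data. Replicate numbers come from the titles. After removal of group means, same-numbered libraries correlated at 0.262, 0.214 and 0.290 and differently numbered ones at -0.34 to -0.0508. Removing group means makes these values depend on each other, so the negative ones are no separate support. The numbers may thus pair the samples. The reported test, of condition alone, does not use this pairing, and the replicate block is given as an alternative. Replicates of a group differed beyond sampling noise, with 110.2 as the lowest chi-square per degree of freedom.

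Depth ranged from 31831093 to 73988425 counts per library. The members and the gene lists were chosen with earlier results of these data known. Genes named beyond the members are *Myog*, called genes of each list (at most 3, by adjusted p), and the 3 genes most like the member of each class with the highest mean TPM over the 6 libraries. Other named genes are markers, genes overlapping a member, genes given to describe a list, or marked as chosen after their values were seen.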

Additional observations from a re-analysis of the deposited data

How the results depend on the processing

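The 8 tested members gave 120 values under alternatives. Of these, 103 kept their sign and their side of the cutoffs, 11 became calls and 6 changed sign. The alternative with an adjusted p up to 0.05 reuses the reported fit, so its sizes and signs were fixed and only calls could change. Of the 11, 8 were *Ccnd3* (among them the looser cutoff of 0.05), 2 *Rb1* (no low-count filter, and without dCas9-KRAB-En5 replicate 3) and 1 *Cdkn1b*. The values that changed sign were those of *Cdkn2c* without dCas9-KRAB replicate 2 (-0.05) and without dCas9-KRAB-En5 replicate 2 (-0.18; over all libraries left out in turn, -0.18 to 0.23), and those of *Rbl1* (-0.11, and -0.13 with the replicate block) and *Ccnd2* (-0.64, and -0.63 with the block) under the GC content and length offsets. The cause was not tested.

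The number of members called was 0 of 8 in the reported test, where 6.19% of all genes tested were called. It was 1 with total counts only (4.08% of all genes tested), with DESeq2 (13.2%), with the replicate block (10.7%) and at an adjusted p up to 0.05 (17%). It was also 1 with the GC content and length offsets without (10.1%) or with the replicate block (8.48%). It was 2 with no low-count filter (9.46%). Leaving out 1 library gave 0 to 3, the 3 without dCas9-KRAB-En5 replicate 3 (25.7%). Leaving out any other library gave 0, where 1.47% to 4.1% of all genes tested were called.

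Over all genes, 890 were called, against 586 with total counts only (516 lower and 70 higher, beside 671 and 219), 2198 with no low-count filter, 2350 with DESeq2, 1543 with the replicate block, 2449 at an adjusted p up to 0.05, 514 with limma on log2(TPM + 1) and 1455 with the GC content and length offsets. Leaving out 1 library gave 222 to 3921, lowest without dCas9-KRAB replicate 1 and highest without dCas9-KRAB-En5 replicate 3. The differences in D cyclin shares kept their sign with CPM in place of TPM and without each library. *Rbl1* had the fewest counts in a library (83), and 0 counts for *Cdkn2a* and *Cdkn2b* limit their levels to at most 0.0942 CPM.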
